A study of Mus musculus with 7 samples.

Results

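The genes of DNA replication and nucleotide synthesis were followed in Tim4+ resident macrophages of the mouse peritoneal cavity. The set held 54 genes, taken by gene symbol from a list of replication factors, enzymes of deoxynucleotide supply and their regulators. Each symbol matched exactly 1 of the 57010 genes in the deposited count table, and all 54 were among the 15981 genes that passed the filter on low counts. There were 4 libraries from C57BL/6 mice at day 12 after an injection of m204 MTO and 3 from control C57BL/6 mice in steady state. MTO is not explained in the labels; peritoneal colorectal cancer is the disease in the series title. Live cells of the peritoneal fluid had been sorted by their staining for Tim4, CD11b and MHC class II at a high stated purity, and poly-A RNA was sequenced. Neither the age nor the sex of the mice, nor whether animals were pooled, is stated. The labels call the libraries biological replicates and number 4 at day 12, although the protocol speaks of 3 per condition, and the p-values reflect only how far these libraries differ from each other.

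A cell copies its genome in steps. Origins are licensed when ORC, Cdc6 and Cdt1 load the ring of MCM2 to MCM7 onto DNA, they fire when Cdc45 and GINS join that ring as the working helicase, and polymerases, the sliding clamp PCNA and the enzymes that seal Okazaki fragments then copy both strands with deoxynucleotides made by ribonucleotide reductase and thymidylate enzymes. Many of these genes are transcribed under E2F factors, which the retinoblastoma proteins hold in check until late G1. Resident macrophages of the mouse peritoneal cavity are known to maintain their numbers in part by dividing in place.

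The labels were checked first. Timd4, which encodes Tim4, had 526, 643, 412 and 399 CPM (reads per library size, scaled by TMM) in day 12 replicates 1 to 4, against 965, 882 and 1043 CPM in steady-state replicates 1 to 3. Gata6, the transcription factor of large peritoneal macrophages, and Itgam, which encodes CD11b, were present in all 7 libraries and higher at day 12. Their means were 246 and 2133 CPM at day 12, against 175 and 1328 CPM in steady state. Summed macrophage markers (8 genes) came to 12500 to 19290 CPM at day 12 and 48490 to 50370 CPM in steady state. Most of the steady-state sum was Lyz2, with a mean of 42101 CPM there and 4624 CPM at day 12. By edgeR 4 of the 8 were higher and 3 lower. Total counts lay between 32077050 and 38586694, so that 3 counts in a library, the floor used here, stood for 0.0754 to 0.0958 CPM. The pan-epithelial marker Epcam was at or below 0.0871 CPM in every library. Summed B cell markers (7 genes) came to 9.06 to 25.6 CPM at day 12, highest in replicate 2, and 3.73 to 5.72 CPM in steady state (exact two-sided permutation test over 35 splits, p = 0.0571, adjusted p = 0.114 over 8 lists of other cell types). The smallest p that 4 against 3 libraries allow is 0.0286, so the adjusted values say little about any 1 list. Summed T and NK cell markers (8 genes) came to 0.609 to 2.61 CPM at day 12 and 0.448 to 0.771 CPM in steady state. Summed dendritic cell markers (6 genes, mostly Cd209a) came to 65.0 to 379 CPM at day 12 and 29.6 to 54.7 CPM in steady state. Mesothelial and fibroblast markers (6 genes) came to 0.176 to 0.636 CPM at day 12 and 0 to 0.160 CPM in steady state. The groups did not overlap for the B cell, dendritic cell, or mesothelial and fibroblast sums. Summed epithelial markers (7 genes, mostly Cdh1) came to 2.01 to 3.14 CPM at day 12 and 0.140 to 0.356 CPM in steady state, and summed neutrophil markers (7 genes, mostly Csf3r) to 109.8 to 199 CPM at day 12 and 432 to 448 CPM in steady state. The groups did not overlap for either sum (exact permutation test, p = 0.0286, adjusted p = 0.114 each). Of the neutrophil markers, Csf3r alone was lower at day 12 (mean 160 CPM, against 440 CPM in steady state). S100a8 (1.37 against 0.775 CPM) and Elane (0.646 against 0.457 CPM) were higher at day 12. S100a9 and Cxcr2 had reads only at day 12, and Ly6g and Mpo had none. The part of B cells, T cells or other cells in the results was not tested.

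None of the 54 replication genes passed the test between day 12 and steady state, although most estimates had the same sign, and libraries of the same group lay far apart. Fitted log2 fold changes were negative for 50 of them and positive for 4, with a median of -0.66, against 49.7% negative and a median of 0.00 over all 15981 genes tested. By edgeR's quasi-likelihood test 0 of 54 rose and 0 fell at an adjusted p of 0.05, where 20.3% of all genes tested passed (10.1% higher, 10.2% lower). At an unadjusted p of 0.05, 8 were lower and 0 higher, where 33.9% of all genes tested passed (17.1% lower, 16.8% higher). DESeq2 called 3 members lower (Ccne2, Pola1 and Rfc4), where it called 12.3% of all genes tested lower. Limma-voom called Rfc4 lower, where it called 10.9% of all genes lower, and neither called any member higher. Without day 12 replicate 2, edgeR called 4 members lower, where 9.58% of all genes tested were. Without steady-state replicate 1, 41 of 54 were negative with a median of -0.35, against a median of 0.03 over all genes tested. None of the members was called in that setting, where edgeR called 961 of 16478 genes higher and 907 lower.

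**Figure D1:**
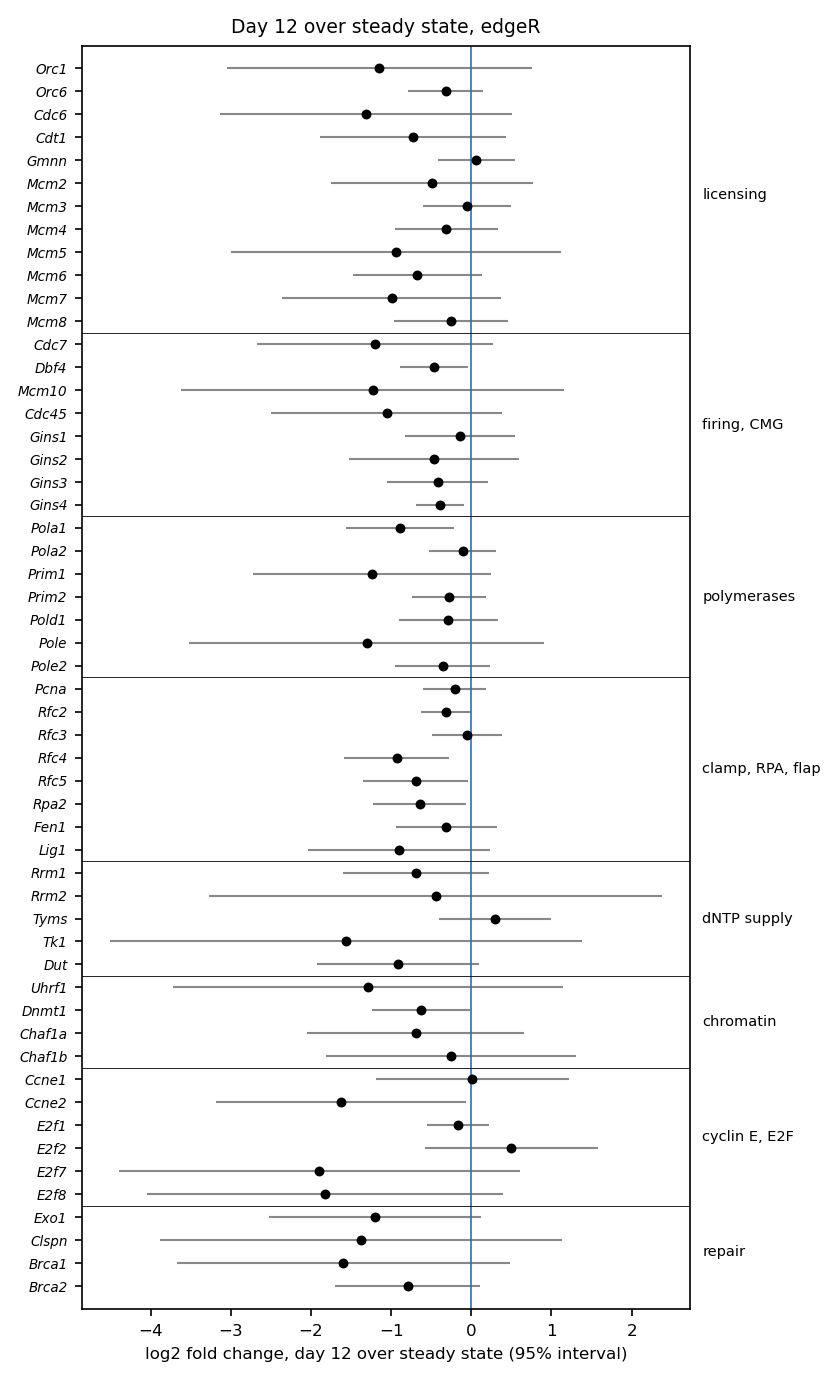
Log2 fold changes of the 54 genes (day 12 over steady state, edgeR; points) with their 95% intervals (lines), grouped by role down the page. Most points lie left of 0, 50 of 54, and the intervals are widest for Tk1 and Rrm2.

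Within each group the members ranged widely. The highest day 12 library exceeded the lowest by a median of 2.82-fold over the 54 members, against 1.54-fold over all genes tested, and in steady state the median was 2.53-fold against 1.19-fold. At day 12, 11 members spanned 10-fold or more, where 2.16% of all genes tested did. In steady state 6 members spanned 5-fold or more, where 1.74% of all genes did, and none spanned 10-fold. Without steady-state replicate 3 the steady-state median was 1.44-fold, and without replicate 1 of that group 1.71-fold. These replicates were the ends of the range in 51 of 54 members, so leaving out either had to narrow it. The same medians over all genes tested are not given here. The median biological coefficient of variation fitted by edgeR was 0.402 for the members and 0.188 for all genes tested.

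**Figure D2:**
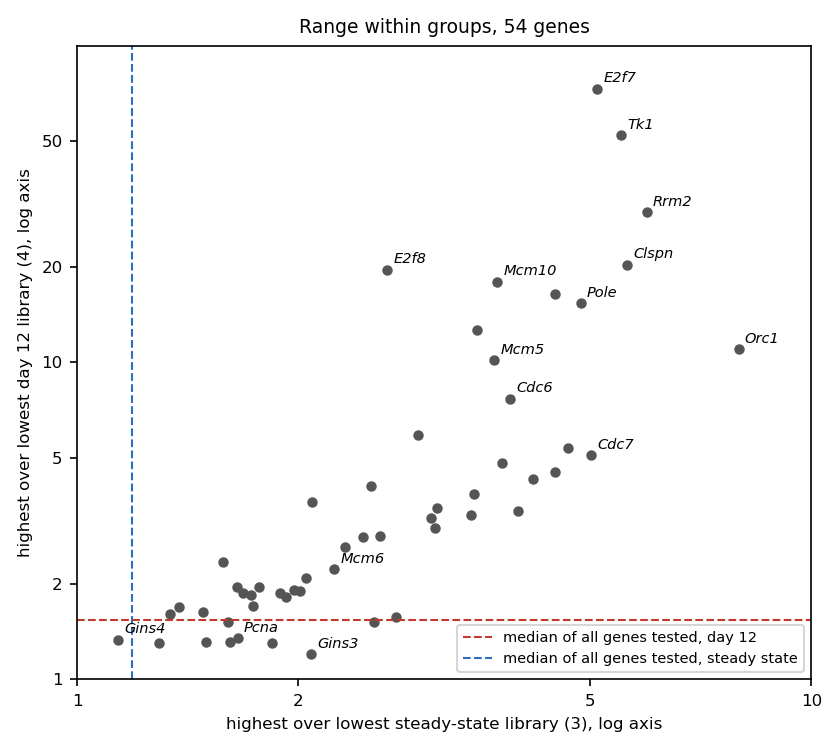
Highest over lowest day 12 library (vertical, 4 libraries) against highest over lowest steady-state library (horizontal, 3 libraries) for each of the 54 genes, on log axes, with dashed lines at the medians over all genes tested. E2f7, Tk1 and Rrm2 lie highest, at 73.0, 52.1 and 29.8-fold at day 12, and Gins4, Pcna and Gins3 lie near or below the median line of day 12.

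The libraries kept nearly the same order from gene to gene. In steady state, replicate 1 was highest, replicate 2 next and replicate 3 lowest in 51 of 54 members, an order that 17.7% of all genes tested showed. At day 12, replicates 2 and 4 were the highest pair in 45 of 54 members, against 23.5% of all genes tested. Steady-state replicate 1 was the highest of all 7 libraries in 49 members, against 12.9% of all genes tested. Day 12 replicate 1 was the lowest in 28 members and day 12 replicate 3 in 17, against 12.5% and 14.8% of all genes tested. Summed over the members, the libraries held 409, 818, 431 and 773 CPM in day 12 replicates 1, 2, 3 and 4, and 1232, 884 and 559 CPM in steady-state replicates 1, 2 and 3. Day 12 replicates 2 and 4 lay inside the steady-state range of this sum, and replicates 1 and 3 below it. In 44 of 54 members steady-state replicate 3 lay below both day 12 replicate 2 and day 12 replicate 4, against 34.95% of all genes tested. All 4 day 12 libraries were below all 3 of steady state in 2 members, Gins4 and Dbf4, where 18.5% of all genes tested were, and above them in 0, where 16.5% were. Without steady-state replicate 3, 32 of 54 members lay wholly below steady state, where 22.1% of all genes tested did; without day 12 replicate 2, 7 did, where 20.2% of all genes did. In bulk RNA, fewer dividing cells and less RNA per dividing cell cannot be told apart.

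**Figure D3:**
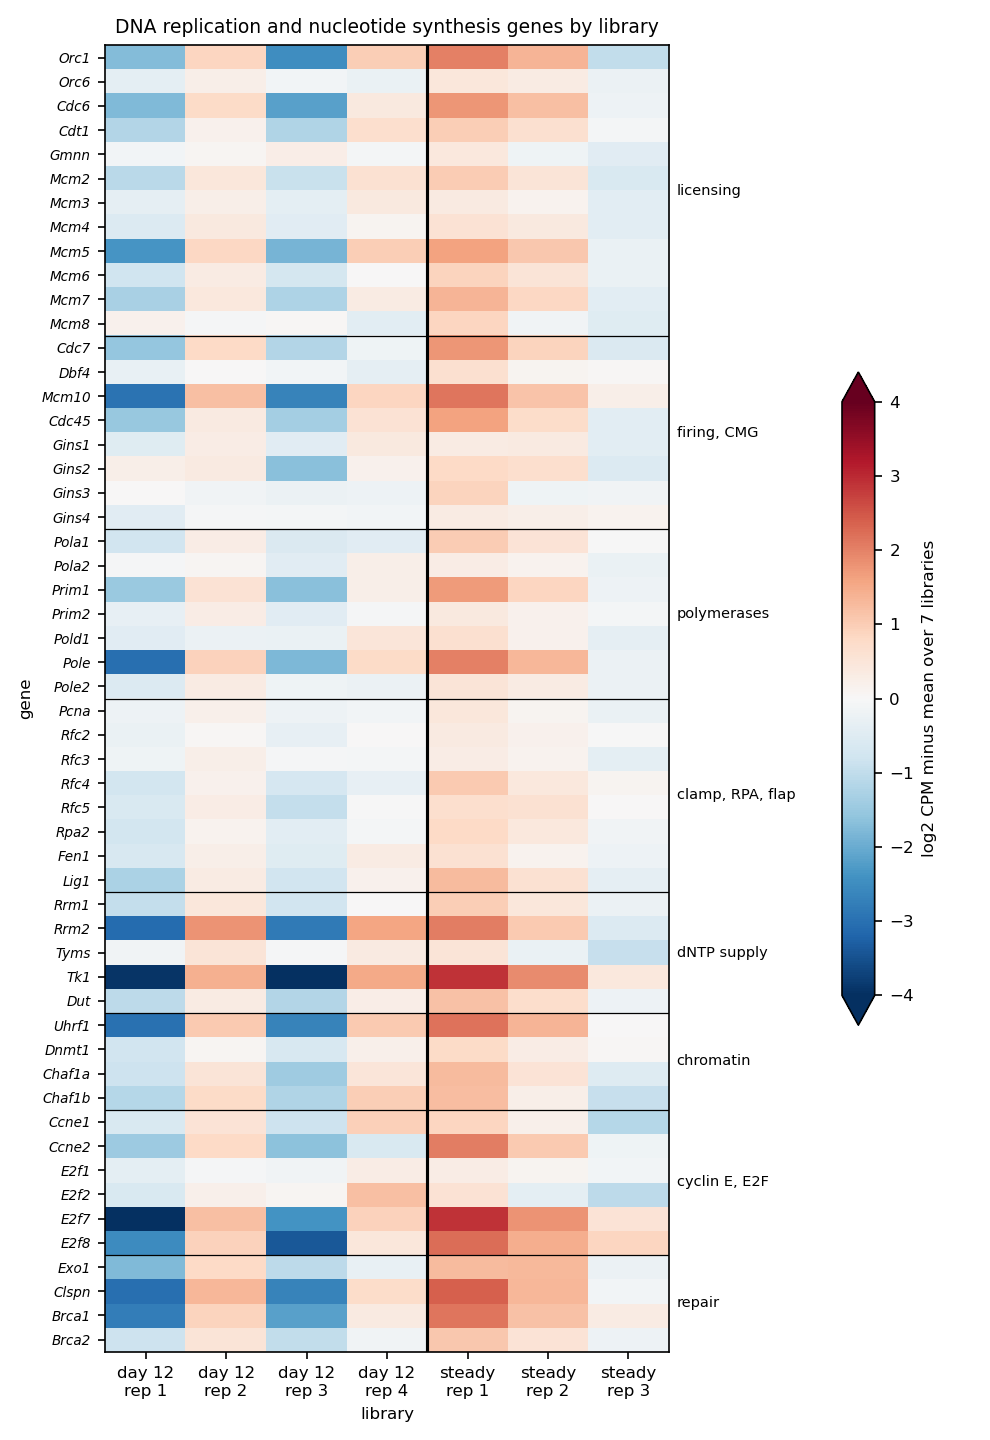
Log2 CPM of each gene minus its mean over the 7 libraries, with day 12 replicates left of the line and steady-state replicates right of it, and genes grouped by role. Colours stop at -4 and 4. Day 12 replicates 1 and 3 are the bluest columns, steady-state replicate 1 the reddest, and the shading is palest in rows such as Gins4, Orc6, Pcna and E2f1.

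The promoters of several members hold the E2F element. Its letters were not used to choose the genes, but the set was chosen by function and many such genes are known E2F targets. A higher share than in all promoters was therefore likely from the choice alone. RefSeq windows of 300 bases (250 before to 50 after an annotated start, build GRCm38.p6) were present for 44 of the 54 members, 53 windows in all. The letters searched were TTTCCCGC, TTTGGCGC, TTTCGCGC and TTTGCCGC on both strands, and a match on 1 strand may overlap a match on the other. Of the member windows 37.7% held at least 1 match (20 of 53, in 20 genes), and of all 32851 windows 2.26% did. The CCAAT box, searched as CCAAT on both strands, was in 56.6% of member windows and 37.4% of all windows. The CHR element, searched as TTTGAA and TTCGAA on both strands, was in 22.6% of member windows and 19.2% of all windows. The stretches below lie upstream of the annotated gene and read 5′ to 3′ on the gene's strand. Capitals mark E2F matches, and in Rrm2 the CCAAT box. Mcm6 (chr1:128359731-128359830, minus strand) carries matches on both strands that overlap, and a further one nearer the start. Mcm5 (chr8:75109334-75109393, plus strand), E2f7 (chr10:110745219-110745278, plus strand) and Gins3 (chr8:95633489-95633548, plus strand) carry matches too, and the Rrm2 window (chr12:24708104-24708253, plus strand) holds a CCAAT box without any of the E2F letters searched.
Mcm6: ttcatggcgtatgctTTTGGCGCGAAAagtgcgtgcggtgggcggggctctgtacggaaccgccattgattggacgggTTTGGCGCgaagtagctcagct
Mcm5: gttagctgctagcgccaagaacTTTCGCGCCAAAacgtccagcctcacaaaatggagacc
E2f7: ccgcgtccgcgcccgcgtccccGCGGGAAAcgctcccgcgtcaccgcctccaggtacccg
Gins3: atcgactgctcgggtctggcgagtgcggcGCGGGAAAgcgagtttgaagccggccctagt
Rrm2: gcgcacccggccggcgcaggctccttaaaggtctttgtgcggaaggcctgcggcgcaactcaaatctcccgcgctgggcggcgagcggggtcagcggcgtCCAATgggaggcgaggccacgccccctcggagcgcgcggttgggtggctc

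E2f7 and Gins3, which hold the same letters, had the widest and the narrowest range of all members at day 12, 73.0-fold and 1.20-fold. The median range at day 12 was 2.90-fold in the 20 members with a match and 3.03-fold in the 24 without one. No match says only that these letters are not in the window.

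Among the licensing factors, Mcm6 had the highest mean CPM over the 7 libraries and the lowest p, although Mcm3 averaged more at day 12 (41.6 CPM). Mcm6, a subunit of the replicative helicase (ENSMUSG00000026355, chromosome 1, 128259327 to 128287401, GRCm39), had 24.0, 53.3, 25.8 and 42.5 CPM in day 12 replicates 1, 2, 3 and 4, against 78.9, 60.1 and 35.2 CPM in steady-state replicates 1, 2 and 3. The groups overlapped, with day 12 replicates 2 and 4 above steady-state replicate 3. The means were 36.4 ± 14.0 CPM at day 12 and 58.1 ± 21.9 CPM in steady state (SD, n = 4 and 3), and the log2 fold change was -0.67 with a 95% interval of -1.48 to 0.13 (edgeR adjusted p = 0.218). Mcm5, which forms the gate through which the MCM ring opens together with Mcm2, varied more. Mcm5 counted 3.44, 31.6, 4.87 and 35.003 CPM in day 12 replicates 1 to 4, against 54.5, 37.9 and 14.8 CPM in steady-state replicates 1 to 3. Day 12 replicates 2 and 4 lay within the steady-state range, while replicates 1 and 3 lay below all of them. Its interval of -2.99 to 1.12 around a log2 fold change of -0.93 includes 0.

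Loading factors that are destroyed or made anew in each cycle had wide ranges. Cdc6, the ATPase that brings MCM rings to the origin, had 0.954, 5.45, 0.710 and 4.27 CPM in day 12 replicates 1 to 4, against 10.9, 7.45 and 2.81 CPM in steady-state replicates 1 to 3. Orc1, the subunit of the origin recognition complex that is known to vary through the cycle, was the scarcest licensing gene. Its reads numbered 5, 32, 3 and 30 in day 12 replicates 1 to 4, against 60, 40 and 7 in steady-state replicates 1 to 3. With 3 reads, day 12 replicate 3 was at the floor for Orc1. Orc6, by comparison, ranged only 1.52-fold at day 12 and 1.61-fold in steady state, and it overlaps the abundant Vps35 on the other strand. The library kit keeps strand, but how strand was handled in counting is unknown here, so members that overlap another gene are uncertain (Orc6, Mcm7, Cdc45, Gins2, Rfc2, Rfc4, Rfc5, Fen1, Lig1, Chaf1a and Ccne2).

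Cdt1, which loads the MCM ring, and its inhibitor geminin (Gmnn) ordered the libraries differently. Cdt1 had 5.17, 12.9, 5.05 and 18.3 CPM in day 12 replicates 1 to 4, against 22.7, 17.9 and 10.9 CPM in steady-state replicates 1 to 3. Gmnn had 8.56, 9.85, 11.2 and 8.79 CPM in day 12 replicates 1 to 4, against 12.5, 8.21 and 6.80 CPM in steady-state replicates 1 to 3. The lowest day 12 libraries for Cdt1 were replicates 1 and 3, whereas replicate 3 was the highest day 12 library for Gmnn. Gmnn was 1 of the 4 members with a positive log2 fold change (0.06, 95% interval -0.42 to 0.54), and it turned negative without steady-state replicate 2 or 3 or day 12 replicate 3. Mcm2, Mcm3, Mcm4 and Mcm7 had log2 fold changes of -0.49, -0.05, -0.31 and -0.99. Mcm8, a helicase of recombination outside the MCM2 to MCM7 ring, had -0.25, and its sign turned without steady-state replicate 1. The sign of Mcm3 turned without steady-state replicate 1, day 12 replicate 1 or day 12 replicate 3. Before adjustment 0 of the 12 licensing genes passed by edgeR at 0.05, where 33.9% of all genes tested did.

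Per length of exon, the subunits of the MCM ring could be set beside each other within a library. Levels here are CPM per kilobase of exon, with exon lengths from GENCODE M21. Mcm3 was the highest of Mcm2 to Mcm7 in all 4 day 12 libraries and in steady-state replicates 2 and 3, and Mcm6 in steady-state replicate 1. The highest subunit exceeded the lowest by 10.6, 2.10, 7.43 and 2.12-fold in day 12 replicates 1, 2, 3 and 4, and by 1.60, 1.87 and 2.73-fold in steady-state replicates 1, 2 and 3. The lowest was Mcm5 in day 12 replicates 1 and 3, at 0.997 and 1.41 CPM per kilobase, where Mcm3 stood at 10.6 and 10.5. In the other 5 libraries it was Mcm2 or Mcm7. The ring subunits were nearest to equal transcript levels in steady-state replicate 1, the library with the highest sum over the members.

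**Figure D4:**
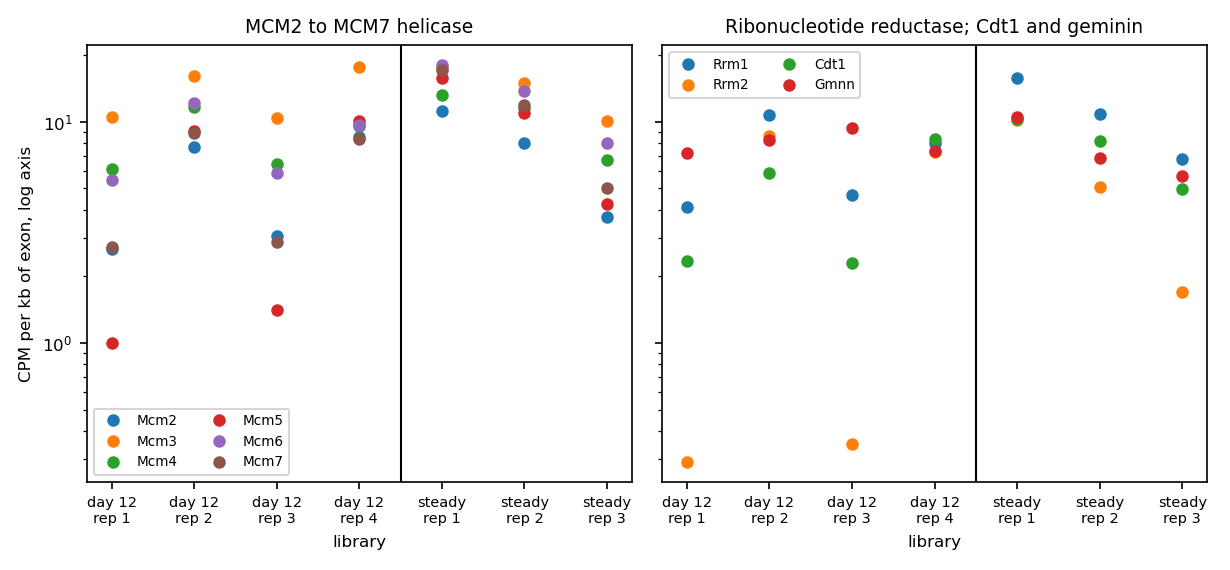
CPM per kilobase of exon (log axis) by library for Mcm2 to Mcm7 (left panel) and for Rrm1, Rrm2, Cdt1 and Gmnn (right panel), with day 12 libraries left of the line in each panel. In day 12 replicates 1 and 3 Mcm5 lies 10.6 and 7.43-fold below Mcm3, and Rrm2 lies far below Rrm1.

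Origin firing genes had both wide and narrow ranges. Mcm10, which helps turn the assembled helicase on, had 0.450, 8.09, 0.552 and 6.36 CPM in day 12 replicates 1 to 4, against 15.4, 7.67 and 4.12 CPM in steady-state replicates 1 to 3. Cdc45, a part of the working helicase that overlaps Ufd1 on the other strand, ranged 4.29-fold at day 12 and 4.17-fold in steady state. Cdc7, the kinase that triggers firing, ranged 5.08-fold and 5.005-fold, but its activator Dbf4 only 1.31-fold and 1.498-fold. Dbf4 had 6.12, 7.62, 6.95 and 5.80 CPM in day 12 replicates 1 to 4, against 11.6, 8.07 and 7.76 CPM in steady-state replicates 1 to 3, so that its groups did not overlap (log2 fold change -0.47, 95% interval -0.89 to -0.05, edgeR adjusted p = 0.111).

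The 4 GINS genes, whose proteins form a single complex, also differed. Gins4 (ENSMUSG00000031546, chromosome 8, 23716632 to 23727675, GRCm39) had the highest mean CPM and lowest p of this role, with 9.67, 12.9, 12.6 and 12.4 CPM in day 12 replicates 1 to 4, against 16.5, 15.6 and 14.5 CPM in steady-state replicates 1 to 3. All day 12 libraries of Gins4 lay below all of steady state, by a small margin (log2 fold change -0.39, SE 0.13, edgeR adjusted p = 0.0718), and the gene passed without day 12 replicate 4 (adjusted p = 0.0497). Gins1 and Gins3 had log2 fold changes of -0.14 and -0.42, and the sign of Gins3 turned without steady-state replicate 1. Gins2, which overlaps Gse1 on the other strand, stood at 1.29 CPM in day 12 replicate 3 and at 4.61 to 5.25 CPM in the other 3 day 12 libraries.

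Subunits of the same polymerase also differed in their range. Pola1, the catalytic subunit of the polymerase that lays down primers (ENSMUSG00000006678, chromosome X, 92348373 to 92675761, GRCm39), had 10.3, 21.4, 11.6 and 12.8 CPM in day 12 replicates 1 to 4, against 35.3, 25.4 and 17.2 CPM in steady-state replicates 1 to 3. Its day 12 libraries lay below steady state apart from replicate 2, with a log2 fold change of -0.89 (95% interval -1.56 to -0.22, edgeR adjusted p = 0.0652). DESeq2 called it lower (adjusted p = 0.0163), as did edgeR without day 12 replicate 2 (adjusted p = 0.0172) or steady-state replicate 3 (adjusted p = 0.0428). Pola2, the accessory subunit of the same enzyme, had a log2 fold change of -0.11 with an interval of -0.53 to 0.31.

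Prim1, the catalytic primase subunit, had 1.19, 5.05, 1.05 and 3.98 CPM in day 12 replicates 1 to 4, against 11.003, 6.05 and 2.91 CPM in steady-state replicates 1 to 3, whereas its partner Prim2 ranged 1.69-fold at day 12 and 1.37-fold in steady state. Pole, the catalytic subunit of the leading-strand polymerase, had 0.609, 9.37, 1.39 and 8.30 CPM in day 12 replicates 1 to 4, against 19.99, 12.4 and 4.12 CPM in steady-state replicates 1 to 3. Its subunit Pole2 ranged only 1.87-fold at day 12. Pold1, the catalytic subunit of the lagging-strand polymerase with the highest mean CPM of this role over the 7 libraries, had 20.03, 23.5, 23.1 and 38.1 CPM in day 12 replicates 1 to 4, against 43.3, 31.1 and 21.5 CPM in steady-state replicates 1 to 3. For Pold1 the highest day 12 library was replicate 4 alone, and the groups overlapped.

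The clamp, its loaders and the flap enzymes had the lowest median range of the 8 roles, 1.84-fold at day 12 and 1.71-fold in steady state over 8 genes. Pcna, the sliding clamp (ENSMUSG00000027342, chromosome 2, 132091082 to 132095234, GRCm39), had 42.3, 56.8, 42.8 and 45.3 CPM in day 12 replicates 1 to 4, against 68.0, 53.1 and 41.1 CPM in steady-state replicates 1 to 3. Its log2 fold change was -0.21 (95% interval -0.60 to 0.19), and its level is uncertain because the pseudogene Pcna-ps2 held 18.6 CPM on average. Rfc4, a clamp loader subunit that overlaps the abundant Eif4a2 on the other strand, had the lowest adjusted p of all 54. It had 2.38, 4.45, 2.47 and 3.13 CPM in day 12 replicates 1 to 4, against 8.16, 5.32 and 4.31 CPM in steady-state replicates 1 to 3, and only day 12 replicate 2 reached into the steady-state range. The log2 fold change of Rfc4 was -0.93 (SE 0.29, edgeR adjusted p = 0.0503), and it passed with DESeq2 (0.0145), limma-voom (0.0498), no filter on low counts (0.0264) and without day 12 replicate 2 (0.0269).

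Of the other loaders, Rfc5 had a log2 fold change of -0.69, Rfc2 -0.31 and Rfc3 -0.06. Rpa2, which coats single-stranded DNA, had -0.64 (95% interval -1.22 to -0.06, edgeR adjusted p = 0.111). Fen1 and Lig1 trim and seal Okazaki fragments. Lig1 had 7.39, 22.1, 10.3 and 19.7 CPM in day 12 replicates 1 to 4, against 42.6, 27.2 and 13.9 CPM in steady-state replicates 1 to 3, and Fen1, which overlaps Tmem258, ranged 1.95-fold and 1.77-fold in those groups. Lig1 ranged 2.99-fold at day 12 and 3.07-fold in steady state.

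In deoxynucleotide supply, the subunits of ribonucleotide reductase ranged 29.8-fold (Rrm2) and 2.61-fold (Rrm1) at day 12, and 5.97-fold and 2.32-fold in steady state. Rrm2, the small subunit of ribonucleotide reductase that is made in S phase (ENSMUSG00000020649, chromosome 12, 24758240 to 24764145, GRCm39), had 0.636, 19.0, 0.763 and 16.1 CPM in day 12 replicates 1 to 4, against 22.3, 11.1 and 3.74 CPM in steady-state replicates 1 to 3. Day 12 replicates 2 and 4 lay within the steady-state range, and replicates 1 and 3, with 24 and 29 reads, below it. Rrm1, the large subunit, had 16.4, 42.8, 18.7 and 32.2 CPM in day 12 replicates 1 to 4, against 62.9, 43.5 and 27.1 CPM in steady-state replicates 1 to 3. Per kilobase of exon, Rrm2 stood at 0.0707, 0.806, 0.0742 and 0.913 times Rrm1 in day 12 replicates 1, 2, 3 and 4, and at 0.646, 0.465 and 0.251 times in steady-state replicates 1, 2 and 3.

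Tk1, the cytosolic thymidine kinase of dividing cells (ENSMUSG00000025574, chromosome 11, 117706352 to 117716918, GRCm39), had 0.159, 6.46, 0.132 and 6.85 CPM in day 12 replicates 1 to 4, against 17.9, 8.94 and 3.26 CPM in steady-state replicates 1 to 3. The low values of Tk1 rest on 6 and 5 reads in day 12 replicates 1 and 3, where replicates 2 and 4 held 257 and 236. The log2 fold change was -1.56 with an interval of -4.51 to 1.38 (edgeR adjusted p = 0.430). Dut, which removes dUTP, had 2.23, 5.73, 2.03 and 5.51 CPM in day 12 replicates 1 to 4, against 10.3, 7.51 and 3.99 CPM in steady-state replicates 1 to 3, and the lowest p of this role (edgeR adjusted p = 0.188). Tyms, which makes thymidylate, had 8.72, 13.6, 9.15 and 12.2 CPM in day 12 replicates 1 to 4, against 13.7, 7.87 and 5.05 CPM in steady-state replicates 1 to 3. Unlike most members, Tyms had its lowest library in steady state and a positive log2 fold change (0.30, 95% interval -0.40 to 1.00).

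**Figure D5:**
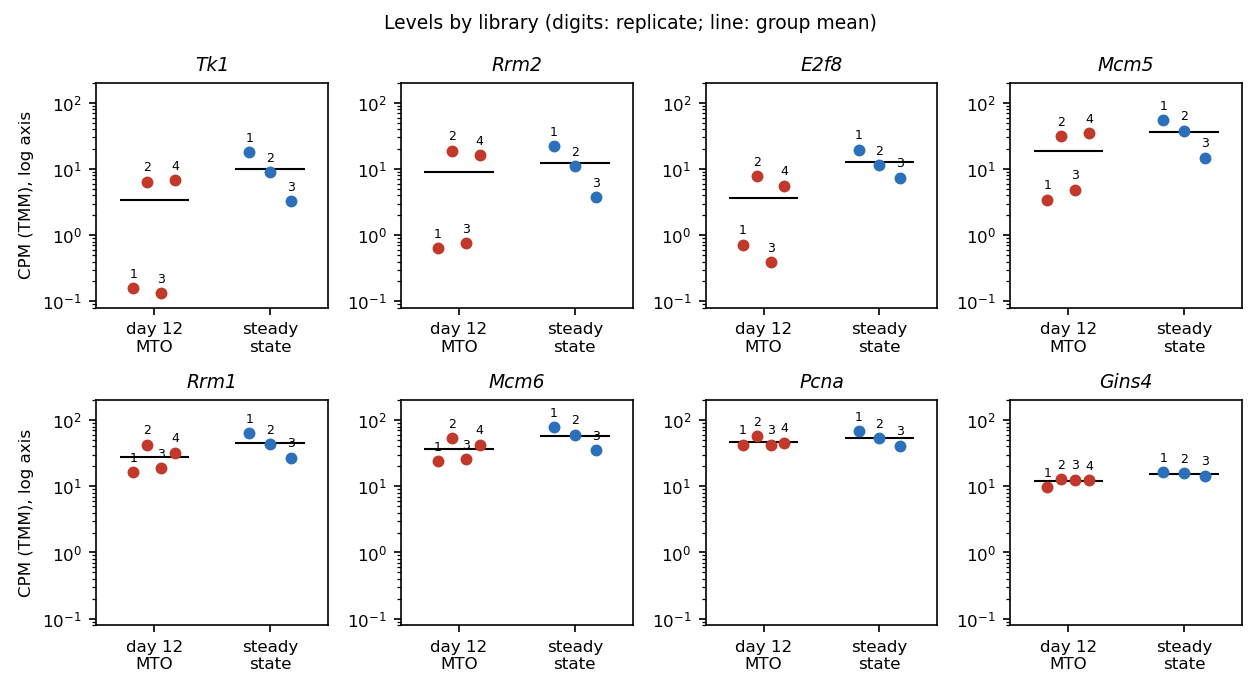
CPM (log axis) in each library for 8 of the genes, with day 12 libraries left of steady-state libraries, replicate numbers beside the points and a line at each group mean. For Tk1, Rrm2, E2f8 and Mcm5, day 12 replicates 1 and 3 lie below every other library, while Gins4 differs little between libraries.

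Genes that restore chromatin behind the fork varied to different degrees. Uhrf1, which reads hemimethylated DNA, had 0.927, 15.01, 1.16 and 15.2 CPM in day 12 replicates 1 to 4, against 32.9, 18.7 and 7.35 CPM in steady-state replicates 1 to 3. Dnmt1, the maintenance methyltransferase that Uhrf1 recruits (ENSMUSG00000004099, chromosome 9, 20818505 to 20871184, GRCm39), was the member with the highest mean CPM of all. It had 32.0, 57.9, 35.3 and 62.7 CPM in day 12 replicates 1 to 4, against 93.9, 66.7 and 56.9 CPM in steady-state replicates 1 to 3 (log2 fold change -0.63, 95% interval -1.23 to -0.02, edgeR adjusted p = 0.136). Uhrf1 ranged 16.4-fold at day 12 and Dnmt1 1.96-fold. Chaf1a and Chaf1b, which place histones on new DNA, had log2 fold changes of -0.70 and -0.26, and Chaf1b turned positive without steady-state replicate 1, day 12 replicate 1 or day 12 replicate 3.

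Among the regulators, the repressors E2f7 and E2f8 had the most negative log2 fold changes of the 54, -1.90 and -1.82. E2f8 (ENSMUSG00000046179, chromosome 7, 48516177 to 48531344, GRCm39) had 0.715, 7.74, 0.395 and 5.602 CPM in day 12 replicates 1 to 4, against 19.6, 11.4 and 7.41 CPM in steady-state replicates 1 to 3. Every steady-state library of E2f8 lay above day 12 replicates 1, 3 and 4, and only replicate 2, at 7.74 CPM, reached the lowest of them. Its interval of -4.04 to 0.40 includes 0 (edgeR adjusted p = 0.224). E2f7 had 1, 77, 6 and 54 reads in day 12 replicates 1 to 4, against 209, 103 and 38 in steady-state replicates 1 to 3, and its range of 73.0-fold at day 12 rests on that single read. E2f1, an activator of the family, had the highest mean CPM and the narrowest ranges of this role, with 13.0, 16.4, 15.5 and 20.9 CPM in day 12 replicates 1 to 4, against 21.1, 18.3 and 15.8 CPM in steady-state replicates 1 to 3. E2f2, also an activator, had 3.31, 5.78, 5.37 and 11.5 CPM in day 12 replicates 1 to 4, against 7.50, 3.81 and 2.43 CPM in steady-state replicates 1 to 3, and its highest library was day 12 replicate 4 (log2 fold change 0.50, 95% interval -0.58 to 1.58).

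The cyclin E genes, whose products activate the kinase that starts S phase, were low in all libraries. Ccne2, which overlaps Ints8 on the other strand, had 0.715, 3.39, 0.631 and 1.31 CPM in day 12 replicates 1 to 4, against 8.19, 4.06 and 1.76 CPM in steady-state replicates 1 to 3. Its log2 fold change was -1.62 (95% interval -3.18 to -0.06, edgeR adjusted p = 0.134), and it passed with DESeq2 (0.0338) and without day 12 replicate 2 (0.0245). Ccne1 had 0.795, 1.76, 0.684 and 2.32 CPM in day 12 replicates 1 to 4, against 2.16, 1.401 and 0.543 CPM in steady-state replicates 1 to 3. Its log2 fold change of 0.02 has an interval of -1.19 to 1.22, and it turned negative without steady-state replicate 3 or day 12 replicate 2 or 4.

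The checkpoint and repair members had a median range of 9.29-fold at day 12, the widest of the 8 roles, and 3.21-fold in steady state. Clspn, an adaptor of the replication checkpoint, had 0.371, 7.54, 0.474 and 5.02 CPM in day 12 replicates 1 to 4, against 15.8, 7.48 and 2.81 CPM in steady-state replicates 1 to 3. Brca1, of homologous recombination, had 0.503, 6.38, 0.763 and 4.41 CPM in day 12 replicates 1 to 4, against 15.2, 7.76 and 4.34 CPM in steady-state replicates 1 to 3, and a log2 fold change of -1.60 (95% interval -3.67 to 0.48). Brca2, also of homologous recombination, had 3.13, 7.92, 2.81 and 4.96 CPM in day 12 replicates 1 to 4, against 11.7, 8.10 and 4.76 CPM in steady-state replicates 1 to 3. Exo1, an exonuclease of mismatch repair and end resection with the lowest p of this role, had 0.583, 3.44, 0.973 and 1.63 CPM in day 12 replicates 1 to 4, against 4.77, 4.93 and 1.69 CPM in steady-state replicates 1 to 3. The log2 fold change of Exo1 was -1.20 (edgeR adjusted p = 0.187), and it passed without day 12 replicate 2 (adjusted p = 0.0420).

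Other genes of the same pathways were taken by function from 4 lists. Of 37 further replication factors, 0 rose and 1 fell, where 10.1% of all genes tested were higher and 10.2% lower. Their median log2 fold change was -0.20. The 1 that fell was Mcmbp, which binds MCM proteins off the DNA, with 88.2 ± 3.76 CPM at day 12 and 109.5 ± 3.90 CPM in steady state (SD, n = 4 and 3; log2 fold change -0.31, edgeR adjusted p = 0.0374), and 9 of 14 alternatives ended that call, among them leaving out any 1 steady-state library or day 12 replicate 1, 2 or 3. Pold4, with the next lowest p, had a log2 fold change of 0.52 (edgeR adjusted p = 0.0670). The median range of these factors was 1.59-fold at day 12 and 1.33-fold in steady state, close to that of all genes tested. The origin subunits Orc2, Orc3, Orc4 and Orc5, named after their values were seen, had log2 fold changes of -0.01, -0.05, 0.06 and -0.37. Orc5 did not pass (edgeR adjusted p = 0.0849). Its day 12 libraries (13.6 to 19.4 CPM) all lay below steady state (21.9 to 23.0 CPM), where 18.5% of all genes tested did.

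Among 36 further genes of nucleotide metabolism, 4 rose and 3 fell, where 10.1% of all genes tested were higher and 10.2% lower, so that the share called was near that of all genes. The rest did not pass, and the median log2 fold change was 0.08. Samhd1, which breaks down deoxynucleotide triphosphates, had 1082, 999, 850.2 and 1168 CPM in day 12 replicates 1 to 4, against 506, 449 and 512 CPM in steady-state replicates 1 to 3. All 4 day 12 libraries lay above steady state, by a log2 fold change of 1.07 (SE 0.14, edgeR adjusted p = 0.000879), and the call held under all 14 alternatives (adjusted p from 2.28e-13 to 0.00899). Ctps2, a CTP synthase, fell to 47.2 ± 6.11 CPM at day 12, against 78.4 ± 2.78 CPM in steady state (log2 fold change -0.73, edgeR adjusted p = 0.00275), under all 14 alternatives as well. The other calls, named after their values were seen, were Impdh1 of guanine nucleotide synthesis (0.74), the salvage enzyme Dck (0.61) and the kinase Nme2 (1.32), which were higher, and Umps of pyrimidine synthesis (-0.49) and Nme4 (-0.71), which were lower. Nme2 can share reads with the closely similar Nme1 and is uncertain. The call for Impdh1 was lost without steady-state replicate 1 or 3 (edgeR adjusted p up to 0.0565), and that for Dck without steady-state replicate 2 or 3 (up to 0.116). The call for Nme2 was lost without any 1 steady-state library (up to 0.0849). Those for Umps (up to 0.116) and Nme4 (up to 0.167) were lost without any 1 steady-state library, day 12 replicate 1 or day 12 replicate 3.

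Of 17 further genes of the E2F, RB and DREAM complexes, 0 passed in either direction by edgeR, where 20.3% of all genes tested did. At an unadjusted p of 0.05, 4 were lower and 0 higher, where 17.1% and 16.8% of all genes tested were. By DESeq2 or limma-voom 0 passed. Lin9 and E2f6 had the lowest p (edgeR adjusted p = 0.106 and 0.124). The 25 further checkpoint and repair genes had a median log2 fold change of -0.46, and 0 of them rose, where 10.1% of all genes tested did. Bard1, the partner of Brca1, had a log2 fold change of -1.23 (edgeR adjusted p = 0.0748).

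Genes of later cycle stages were set beside the replication genes. Mki67, the proliferation marker, had 13.4, 72.7, 15.2 and 49.8 CPM in day 12 replicates 1 to 4, against 177, 88.7 and 53.3 CPM in steady-state replicates 1 to 3. Top2a, the topoisomerase that untangles chromosomes, had 10.3, 55.2, 10.996 and 34.9 CPM in day 12 replicates 1 to 4, against 132, 66.2 and 33.2 CPM in steady-state replicates 1 to 3. For both, day 12 replicates 1 and 3 were lowest, and steady-state replicate 1 was highest, followed by replicates 2 and 3 of that group. The mitotic genes Cdk1, Ccnb1, Bub1, Birc5, Aurkb and Tpx2 had log2 fold changes of -0.72, -1.31, -1.14, -1.53, -0.85 and -1.56. All 8 genes of that reference list had negative log2 fold changes (median -1.39) and 0 passed by edgeR, DESeq2 or limma-voom. At an unadjusted p of 0.05 edgeR called 0 of the 8, where it called 33.9% of all genes tested (20.3% after adjustment). Their median range was 5.50-fold at day 12 and 3.30-fold in steady state.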

How the data were processed

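Poly-A RNA of sorted Tim4+ peritoneal macrophages was sequenced in 7 libraries, 4 at day 12 and 3 in steady state. The deposited values are raw read counts per gene from the authors. The submitters' processing notes name build GRCm39 and, without their order or role, the tools DESeq2 1.40.2, Subread 2.0.6 with featureCounts, SAMtools 1.10 and STAR 2.7.11a. For the gene annotation's release, strand and multimapping the settings are not given in the sources.

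Genes were filtered with filterByExpr (minimum count 10, minimum total 15), scaled by TMM and tested with edgeR 4.0.16 (robust quasi-likelihood, R 4.3.3), with Benjamini-Hochberg adjustment over all 15981 genes at 0.05. CPM used TMM library sizes. Alternatives were DESeq2 1.42.0, limma-voom (limma 3.58.1), other scaling and filters, a replicate block, and leaving out each library. The code was checked on simulated counts. Total counts were 32077050 to 38586694, and the floor covers counting error only. The members and lists were chosen with earlier results of these data known. For each role, the member with the highest mean and the one with the lowest p were named, for each other list the 2 with the lowest p, and the cycling genes; all other genes given by library were chosen after their values were seen. Exon lengths were from GENCODE M21 and promoters from RefSeq (GRCm38.p6). Protein sequences were not used here. The result of 1 further repair gene is not reported here.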

Additional observations from a re-analysis of the deposited data

Results flagged for a closer look

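In 62 groups of library values scanned, 2 held a library far from the other 3 of its group, and chance alone marks about 1 group in 20. Gins2 stood at 1.289 CPM in day 12 replicate 3, with 4.61 to 5.25 CPM in the other day 12 libraries, so that the gap to the nearest was 0.839 of the whole range. Gins4 stood at 9.672 CPM in day 12 replicate 1, with 12.4 to 12.9 CPM in the other day 12 libraries, a gap of 0.845 of the range. Both proteins belong to the GINS complex, and the odd library was not the same for the 2 genes.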

How the results depend on the processing

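Over 14 alternatives 0 to 4 members were called lower and 0 higher. DESeq2 called 3 members lower, where it called 12.3% of all genes tested lower. Limma-voom, no filter on low counts and the replicate block called 1 each. Over all genes these called 1749 of 15981, 1613 of 27238 and 2289 of 15981 lower. Members wholly below steady state numbered 1 with library totals alone, where 17.0% of all genes tested were. With a filter of 1 CPM in 3 libraries they also numbered 1, where 17.8% of all genes tested were. Of the further replication factors, 0 were lower with library totals, without a filter and with the CPM filter, 3 with the block, and 2 lower and 1 higher with DESeq2, which also called 2 of the further repair genes lower. The labels do not say whether equal replicate numbers mark libraries handled together. Deviations of same-numbered libraries correlated at -0.168, 0.046 and 0.256, and those of differently numbered libraries at -0.304 to 0.254. These values cannot show whether the libraries were paired. With the replicate block 4278 genes passed in place of 3242 (1989 higher, 2289 lower), the 1 member was Rfc5 (adjusted p = 0.0290), Ccne1 turned to -0.28, and Dck did not pass (adjusted p = 0.0837).

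Leaving out 1 library at a time gave 857 to 2188 genes higher and 904 to 2411 lower over all genes, lowest without steady-state replicate 3 for both (904 lower also without steady-state replicate 2) and highest without day 12 replicate 4. Members called lower ranged from 0 to 4. Members wholly below steady state ranged from 2 to 32 (32 without steady-state replicate 3), where 19.2% to 24.5% of all genes tested were. Members wholly above steady state ranged from 0 to 2 (2 without steady-state replicate 1), where 16.5% of all genes tested were with no library left out. The share of all genes wholly above for each left-out library is not given here. The median range of the members was 2.05 to 2.82-fold at day 12 and 1.44 to 2.54-fold in steady state. Calls ranged from 0 to 1 higher and 0 to 4 lower in the further replication factors, 1 to 6 higher and 1 to 4 lower in nucleotide metabolism, 0 to 1 lower in the E2F, RB and DREAM genes and 0 to 2 lower in the repair genes. The members whose log2 fold change turned its sign ranged as follows: Ccne1 -0.36 to 0.53, Mcm3 -0.25 to 0.15, Mcm8 -0.50 to 0.26, Gins1 -0.36 to 0.0067, Gins3 -0.60 to 0.0367, Pola2 -0.26 to 0.0374, Pold1 -0.52 to 0.0169, Pcna -0.38 to 0.0115, Rfc3 -0.24 to 0.11, Rrm2 -1.05 to 0.32, Chaf1b -0.64 to 0.43 and Gmnn -0.12 to 0.37. The cause was not tested. The low values of Tk1, E2f7 and Orc1 are limited by depth, and 3 steady-state libraries limit every range.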
